A study of Mus musculus with 16 samples.

Results

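Alveolar type 2 (AT2) cells, the cells of the lung that make surfactant, were compared across genotype and sort at once: cells sorted as CD44- from the lungs read here as Sftpc mutant, against cells sorted as CD44+ from the lungs read here as control. The comparison used 8 of the 16 RNA sequencing libraries of the series, 4 per group, taken by column name: the columns with prefix OG and the ending CD44-, and the columns with prefix R26 and the ending CD44+. The column names number the animals within each prefix (a number 7 occurs under both), and no animal stood in both groups. The labels describe lungs of 4 control and 4 Sftpc mutant mice in all, each sorted into a CD44- and a CD44+ library. The labels give the genotypes SP-C Mutant and SP-C WT and the same treatment text, OG TMX, for every sample; which Sftpc allele was used, what drives its recombination, and the strain, age and time after treatment are not given in the sources used here. The column prefixes are not tied to a genotype by the labels, so reading OG as mutant and R26 as control is an inference, and the groups are called OG CD44- and R26 CD44+ below. The sort followed a depletion of CD45+ and CD31+ cells. It kept live cells that stained for Epcam and strongly for CD200 but not for CD45, CD31 or CD104, and divided them by CD44. Sftpc encodes surfactant protein C, and CD44 is a surface receptor for hyaluronan. Because prefix and sort both differ between the groups, their parts in a difference cannot be told apart within this comparison, and the levels in the remaining groups, R26 CD44- and OG CD44+, are given beside it as values where a result turns on them.

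AT2 cells also act as progenitors of the flat alveolar type 1 (AT1) cells that line the gas exchange surface, and on the way they can pass through a transitional state marked by Krt8 and other keratins. Cells that must fold large amounts of secreted protein rely on ER chaperones, on the proteasome, and on the transcription factors ATF4 and NRF2. ATF4 drives amino acid supply and tRNA charging when translation initiation is restrained, and NRF2 drives glutathione and thioredoxin enzymes under oxidative or electrophilic stress.

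Library totals were 9022471 to 21363816 counts in these 8 libraries, and 3 counts correspond to at most 0.333 CPM (counts scaled to a common library size after TMM adjustment). The 4 OG CD44- libraries lay closer together than the R26 CD44+ libraries, with a biological coefficient of variation of 0.0398 against 0.169. Pairs of OG CD44- libraries still differed by more than counting noise, with a median chi-square per gene of 0.742 to 1.04 where counting alone gives 0.455. Some libraries stood apart. Among R26 CD44+ libraries, animal 2 was highest for Sftpc, and animal 1 held the basal cell keratin gene Krt5 at 34.4 CPM where the other 3 were at 0. Leaving out each of the 8 libraries in turn left 5028 to 5367 genes called higher and 5472 to 5994 lower, and a result that a single library decides is given with and without it. Values below are CPM per library, listed in the order OG animals 7, 6, 5 and 3 and R26 animals 8, 7, 2 and 1. Differences are log2 fold changes ± SE of OG CD44- minus R26 CD44+, and a gene is called where the edgeR quasi-likelihood test gave a Benjamini-Hochberg adjusted p under 0.05.

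The gate antigens and the labelled gene were examined first. Sftpc stood at 12022, 12002, 11611 and 11102 CPM in the 4 OG CD44- libraries and at 47309, 48837, 72715 and 48594 CPM in the 4 R26 CD44+ libraries (chromosome 14, 70520941 to 70524081 in mm10). All OG CD44- values lay below all R26 CD44+ values (log2 fold change -2.22 ± 0.12, adjusted p = 7.37e-13), and the other groups stood at 79592 ± 7872 CPM in R26 CD44- and 6696 ± 684 CPM in OG CD44+. Without a description of the allele, the level of Sftpc is no check of genotype. Cd44 stood at 549, 567, 538 and 593 CPM in the 4 OG CD44- libraries and at 426, 560.0, 387 and 502 CPM in the 4 R26 CD44+ libraries. The ranges overlapped, and the test called Cd44 transcript higher in the OG cells sorted as CD44- than in the R26 cells sorted as CD44+ (log2 fold change 0.26 ± 0.08, adjusted p = 0.00422). Within each prefix, mean Cd44 was lower in the CD44- than in the CD44+ sort. The means were 329 ± 4.45 against 469 ± 77.4 CPM in R26 and 562 ± 24.1 against 914 ± 22.6 CPM in OG. Under the alternative settings the difference ranged from 0.12 to 0.32, and the call was not kept in all of them. Epcam was higher by 0.48 ± 0.05, Itgb4, which encodes CD104, by 0.83 ± 0.13, and Cd200 was lower with overlapping ranges (-0.13 ± 0.05). The call on Cd200 was lost without OG animal 5 (adjusted p = 0.105) or animal 3 (adjusted p = 0.1) in the edgeR test. Ptprc, which encodes CD45, was at 1.21 ± 0.329 against 7.94 ± 5.06 CPM, and Pecam1, which encodes CD31, at 4.65 ± 0.598 against 18.03 ± 1.86 CPM. Both excluded antigens were called lower in OG CD44- (-2.72 ± 0.38 and -1.94 ± 0.33). Ptprc was at 0.164 ± 0.0279 CPM in R26 CD44- and 5.14 ± 2.33 CPM in OG CD44+, so OG CD44- lay above R26 CD44-. Pecam1 was at 3.88 ± 1.08 CPM in R26 CD44- and 3.55 ± 2.92 CPM in OG CD44+, so R26 CD44+ alone stood high. AT2 defining genes were abundant in both groups: Lamp3, a lamellar body protein gene, stood at 2163 ± 66.5 CPM in OG CD44- against 3382 ± 267 CPM in R26 CD44+, and Abca3 at 1807 ± 36.9 CPM in OG CD44- against 2392 ± 413 CPM in R26 CD44+.

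Of 15516 genes tested, 5466 (35.2%) were higher and 5675 (36.6%) lower in OG CD44- cells, 71.8% in all. Most genes were therefore called, and each list below is read against these shares. Differences of at least 2-fold were less even: 1124 genes (7.24%) were higher and 2954 (19%) lower by that much. Without overlap between the groups, 4899 genes (31.6%) were above and 4763 (30.7%) below in OG CD44-. Against all of the other 12 libraries, 1682 called genes (10.8%) had their 4 highest values in OG CD44- and 480 (3.09%) their 4 lowest. The median log2 fold change over all genes was -0.02, and upper quartile scaling moved it to -0.165, with 4350 higher and 6766 lower. The plot of list members called by direction shows where gene groups stood against these shares.

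**Figure D1:**
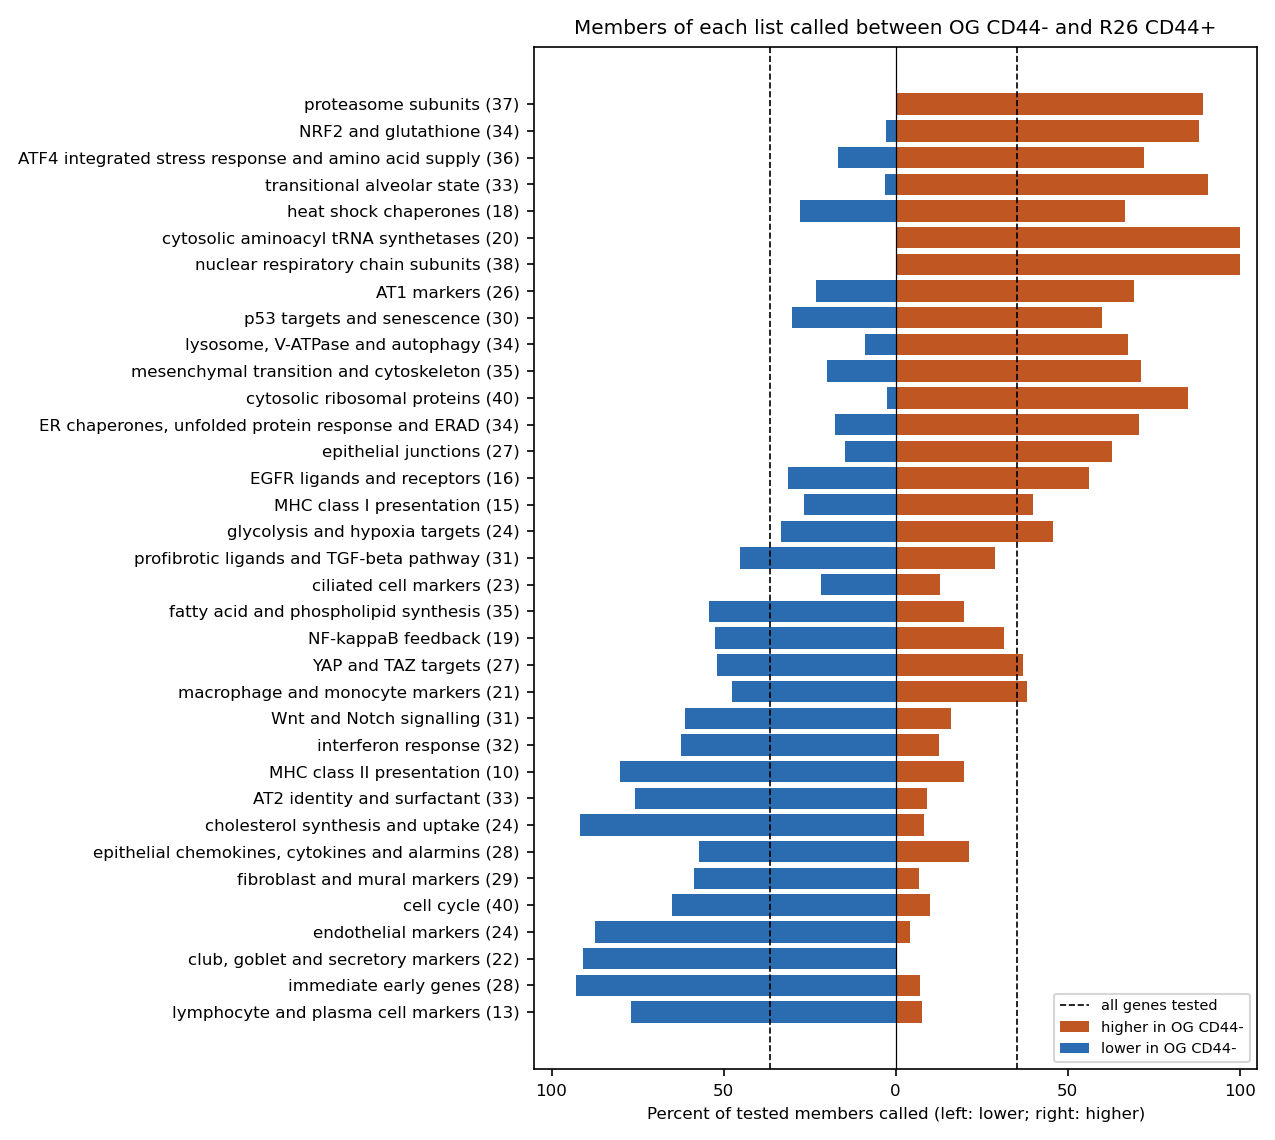
Percent of the tested members of each gene list that were called higher (right, orange) or lower (left, blue) in OG CD44- than in R26 CD44+ cells, for lists with at least 10 tested members, ordered by median log2 fold change, with the number tested in brackets. Dashed lines mark the shares over all genes, 35.2% higher and 36.6% lower; proteasome, NRF2 and tRNA synthetase lists stand far past the right line, and immediate early, club cell and endothelial lists past the left one.

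One of the largest increases was in Slc7a11, the cystine importer that feeds glutathione synthesis (chromosome 3, 50364936 to 50499087 in mm10). Slc7a11 stood at 603, 617, 626 and 542 CPM in the 4 OG CD44- libraries and at 3.58, 6.28, 4.16 and 4.68 CPM in the 4 R26 CD44+ libraries. Every OG CD44- value lay far above every R26 CD44+ value (log2 fold change 6.98 ± 0.11, adjusted p = 4.23e-21). The other groups stood at 0.965 ± 0.318 CPM in R26 CD44- and 356 ± 27.7 CPM in OG CD44+. Slc7a11 is a known target of both ATF4 and NRF2, and its RefSeq promoter (GRCm38.p6) is printed here because it carries a pair of ATF4-type motifs. Promoter windows of 250 bases before to 50 after each start site were searched on both strands for ATGCAAT or TGATGNAA, the letters of composite sites for ATF4 with CEBP proteins, where N is any base and the pair overlaps in TGATGCAAT. Capitals mark the matches, and each sequence is a match with up to 15 bases on either side, from the promoter window, read 5′ to 3′ along the gene's strand.

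The matches, shown in 4 ATF4 list members and a tRNA synthetase gene that were higher, were as follows.
Slc7a11, chr3:50443638-50443694, minus strand: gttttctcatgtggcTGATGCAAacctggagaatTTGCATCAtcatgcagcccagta
Chac1, chr2:119351034-119351071, plus strand: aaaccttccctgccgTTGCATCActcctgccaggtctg
Asns, chr6:7693210-7693247, minus strand: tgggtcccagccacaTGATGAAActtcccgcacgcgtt
Got1, chr19:43524685-43524732, minus strand: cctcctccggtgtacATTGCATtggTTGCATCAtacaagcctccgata
Tars, chr15:11399659-11399688, minus strand: gggccaggagtcccgTTGCATCAgctggtt

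Such a match stood in the promoters of 10 of 32 (31.2%) tested members of the ATF4 list and 5 of 13 (38.5%) of the tRNA synthetase list that had a promoter in the table, against 449 of 11498 (3.91%) over all genes tested. The shares were 3 of 29 (10.3%) in the NRF2 list, 1 of 17 (5.88%) in the cholesterol list, 1 of 29 (3.45%) in the ER list and 1 of 31 (3.23%) in the proteasome list. The match is a description of letters and does not mark direction: Atf3, Pycr1 and Vldlr carried it too, with log2 fold changes of -1.82 ± 0.19, 0.05 ± 0.25 and 0.01 ± 0.06, and of these Atf3 alone was called, as lower.

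Genes of glutathione synthesis, thioredoxin reduction and NADPH supply were higher almost throughout in OG CD44- cells. In the NRF2 and glutathione list, of 34 tested, 30 were higher and 1 lower in OG CD44- (median log2 fold change 1.67, against -0.02 over all genes), and 21 members were at least 2-fold higher. Srxn1 stood at 738, 726, 741 and 653 CPM in the 4 OG CD44- libraries and at 41.7, 32.9, 38.6 and 31.2 CPM in the 4 R26 CD44+ libraries. Srxn1 encodes sulfiredoxin, which restores oxidised peroxiredoxins, and its groups did not overlap (log2 fold change 4.31 ± 0.08, adjusted p = 1.76e-22). Gclm stood at 135, 138, 140.3 and 134 CPM in the 4 OG CD44- libraries and at 20.7, 15.8, 20.8 and 22.3 CPM in the 4 R26 CD44+ libraries. Gclm, the modifier subunit of the rate-limiting enzyme of glutathione synthesis, was likewise higher in every OG CD44- library (log2 fold change 2.78 ± 0.08, adjusted p = 2.88e-19), as was the catalytic subunit gene Gclc (1.15 ± 0.07). Further log2 fold changes were Gss, glutathione synthetase, 1.79 ± 0.10, Gsr, glutathione reductase, 1.75 ± 0.06, Txnrd1, thioredoxin reductase, 1.66 ± 0.05, the quinone reductase gene Nqo1 3.21 ± 0.21 and the glutathione peroxidase gene Gpx2 3.34 ± 0.10. Enzymes of the pentose phosphate pathway, which supplies NADPH, were included: G6pdx 1.11 ± 0.07, Pgd 1.93 ± 0.07, Taldo1 2.49 ± 0.06 and Tkt 0.55 ± 0.08. The biliverdin reductase gene Blvrb, named for the size of its change outside the lists, stood at 184 ± 5.01 CPM in OG CD44- against 15.9 ± 5.73 CPM in R26 CD44+ (log2 fold change 3.56 ± 0.15, adjusted p = 6.91e-12). Nfe2l2, the gene of NRF2 itself, differed by 0.17 ± 0.05. Gstm2, a glutathione transferase gene, was the member that was lower (-1.11 ± 0.14), and without R26 animal 7 or animal 1 a further member was called lower. Gsta1 and Gsta2 are close copies, so their separate changes (4.77 ± 0.28 and 3.90 ± 0.28) are uncertain.

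The NRF2 core letters TGACNNNGC, searched on both strands, stood in 10 of 29 (34.5%) promoters of the NRF2 list and 4 of 31 (12.9%) of the proteasome list, against 1947 of 11498 (16.9%) over all genes. The match was not particular to the NRF2 list: it stood in 10 of 32 (31.2%) promoters of the ATF4 list, 3 of 13 (23.1%) of the tRNA synthetase list, 6 of 29 (20.7%) of the ER list and 4 of 17 (23.5%) of the cholesterol list, whose members were mostly lower. Matches in members that were higher are shown for comparison, with the match in capitals.
Gclm, chr3:122245408-122245446, plus strand: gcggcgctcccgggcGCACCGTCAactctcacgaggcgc
Prdx1, chr4:116685451-116685489, plus strand: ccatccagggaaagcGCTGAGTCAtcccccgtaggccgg
Txnrd1, chr10:82859099-82859137, plus strand: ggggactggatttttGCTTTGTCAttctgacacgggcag
G6pdx, chrX:74428914-74428952, minus strand: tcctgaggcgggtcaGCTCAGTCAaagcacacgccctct
Psmb5, chr14:54618019-54618057, minus strand: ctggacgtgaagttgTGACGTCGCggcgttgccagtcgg

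**Figure D2:**
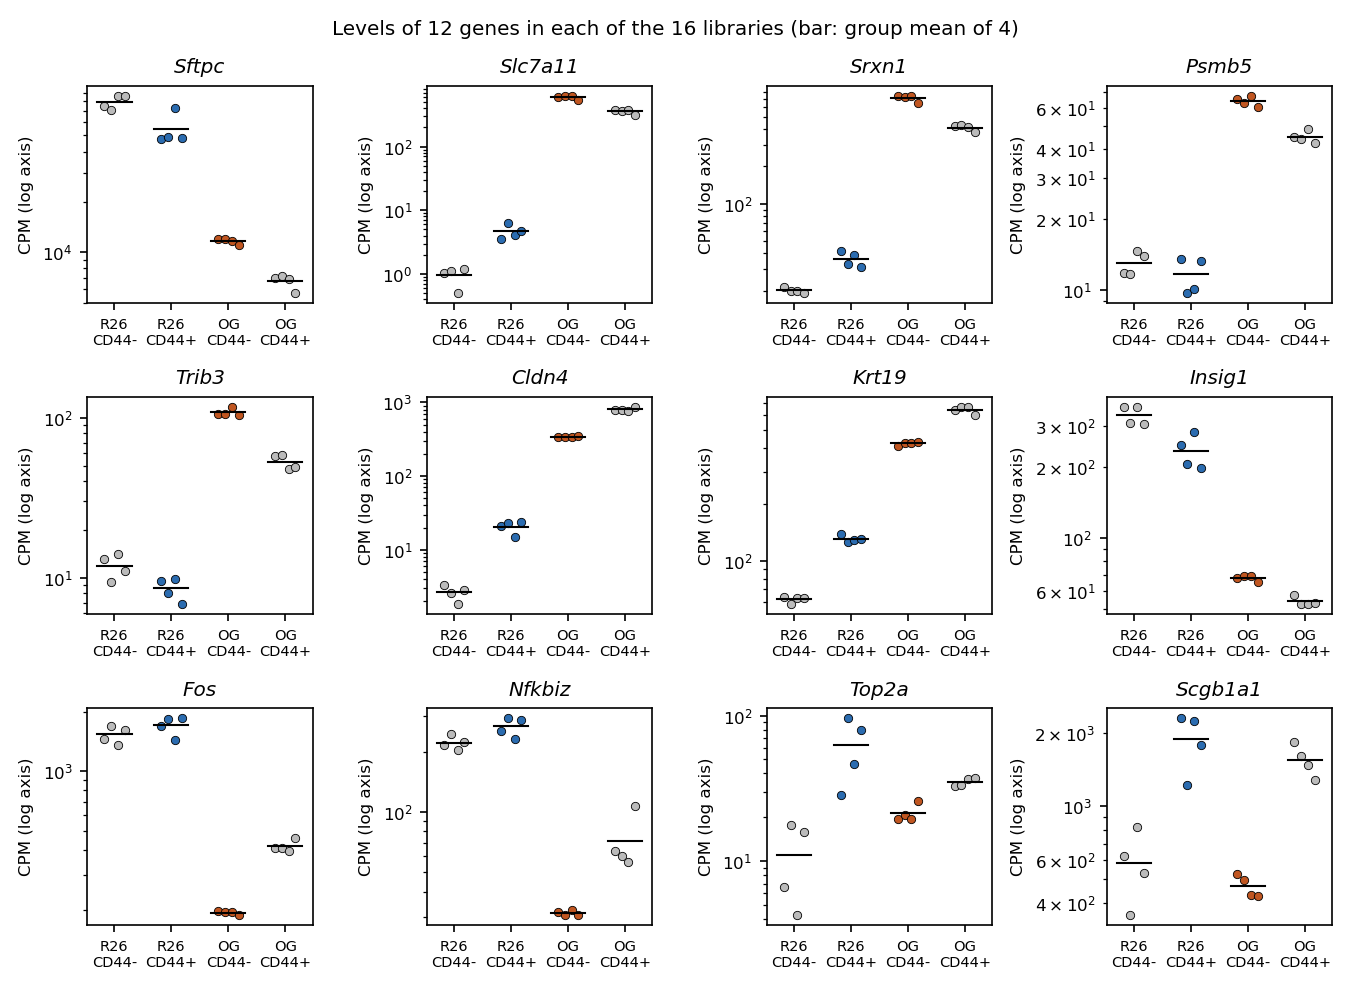
CPM on a log axis for 12 genes in all 16 libraries, by group, with OG CD44- in orange, R26 CD44+ in blue, the remaining groups in grey and a bar at each group mean. Slc7a11, Srxn1, Psmb5 and Trib3 were highest in OG CD44-, Cldn4 and Krt19 stood above R26 CD44+ but below OG CD44+, and Fos and Nfkbiz were lowest in OG CD44-.

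The integrated stress response and amino acid supply genes followed. For the ATF4 list, of 36 tested, 26 were higher and 6 lower in OG CD44- (median log2 fold change 1.37). Trib3 stood at 106, 106, 117 and 104 CPM in the 4 OG CD44- libraries and at 9.61, 7.99, 9.86 and 6.84 CPM in the 4 R26 CD44+ libraries. Trib3, a pseudokinase gene induced by ATF4, showed no overlap between the groups (log2 fold change 3.67 ± 0.11, adjusted p = 2.46e-17). Asns stood at 118, 118, 124 and 109.7 CPM in the 4 OG CD44- libraries and at 18.6, 19.5, 14.02 and 16.1 CPM in the 4 R26 CD44+ libraries. Asns, asparagine synthetase, was higher in every OG CD44- library than in any R26 CD44+ library (log2 fold change 2.77 ± 0.09, adjusted p = 7.16e-18). The mitochondrial folate enzyme gene Mthfd2 differed by 4.15 ± 0.12, and the glutathione-degrading enzyme gene Chac1 by 3.46 ± 0.15. Serine synthesis was represented by Phgdh 2.30 ± 0.26, Psat1 1.69 ± 0.13 and Psph 1.69 ± 0.13, and amino acid transport by Slc7a3 4.25 ± 0.19, Slc1a4 2.84 ± 0.11, Slc7a1 2.30 ± 0.06 and Slc7a5 1.92 ± 0.11. The transcript of Atf4 itself differed by 0.33 ± 0.06 and Ddit3, which encodes CHOP, by 0.70 ± 0.13. Members that were lower included Atf3 -1.82 ± 0.19, Ppp1r15a -0.55 ± 0.07, which encodes the phosphatase subunit that reverses eIF2α phosphorylation, and Eif2ak3, which encodes the kinase PERK, -0.33 ± 0.06.

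All cytosolic aminoacyl tRNA synthetase genes tested, the enzymes that load amino acids on tRNA, were higher in OG CD44-: all 20 tested were higher in OG CD44- (median log2 fold change 1.13, range 0.42 to 1.64), with no overlap between the groups for any of them. Aars stood at 249, 262, 259 and 244 CPM in the 4 OG CD44- libraries and at 77.5, 76.7, 88.1 and 83.2 CPM in the 4 R26 CD44+ libraries (log2 fold change 1.64 ± 0.05, adjusted p = 1.98e-18). Nars and Sars differed by 1.64 ± 0.06 and 1.58 ± 0.06, while the smallest differences were in Qars (0.42 ± 0.08) and Vars (0.49 ± 0.05). In 14 of the 20, all OG CD44- values also lay above every one of the other 12 libraries; the same held for 20 of 36 ATF4 list members, against 10.8% of all genes.

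ER folding genes differed less. In the list of ER chaperones, unfolded protein response and ERAD genes, of 34 tested, 24 were higher and 6 lower in OG CD44- (median log2 fold change 0.43), and 1 member, Sdf2l1, was more than 2-fold higher (1.60 ± 0.13). Hspa5 stood at 1256, 1276, 1299 and 1311 CPM in the 4 OG CD44- libraries and at 708, 659.6, 574 and 711 CPM in the 4 R26 CD44+ libraries. Hspa5 encodes BiP, the main ER chaperone, and its groups did not overlap (log2 fold change 0.95 ± 0.06, adjusted p = 1.01e-12). Pdia4, a disulfide isomerase gene, differed by 0.74 ± 0.04, Hyou1, an ER chaperone gene, by 0.80 ± 0.05, and Sel1l, an ERAD adaptor gene, by 0.86 ± 0.05. The members that were lower were Herpud1 -0.54 ± 0.05, Dnajb9 -0.34 ± 0.07, Xbp1 -0.29 ± 0.04, Eif2ak3, Ssr1 -0.35 ± 0.04 and Fkbp11 -0.97 ± 0.23.

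The ER stress element, CCAAT and CCACG with 9 bases between them, searched on both strands, stood in 10 of 29 (34.5%) promoters of this list against 19 of 11498 (0.165%) over all genes. The list was chosen by function, and the part of the element in the differences was not tested. Pdia6 and Derl3 carried it and were not called (log2 fold changes 0.1 and -0.03), while the other carriers were higher. Its placing in the promoters of chaperone genes that were higher is shown with the element in capitals.
Hspa5, chr2:34772010-34772058, plus strand: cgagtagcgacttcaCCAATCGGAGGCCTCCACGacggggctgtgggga
Canx, chr11:50325785-50325833, minus strand: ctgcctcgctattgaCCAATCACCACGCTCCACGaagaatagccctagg
Calr, chr8:84847060-84847108, minus strand: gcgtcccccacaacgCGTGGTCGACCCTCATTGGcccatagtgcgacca

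Proteasome subunit genes were higher nearly as a whole, with the immunoproteasome subunits as the exception. In this list, of 37 tested, 33 were higher in OG CD44- (median log2 fold change 1.78), and 31 were at least 2-fold higher. Psmb5 stood at 65.5, 62.6, 67.3 and 60.6 CPM in the 4 OG CD44- libraries and at 13.5, 9.69, 10.1 and 13.3 CPM in the 4 R26 CD44+ libraries. Psmb5, which encodes the chymotrypsin-like catalytic subunit, did not overlap (log2 fold change 2.45 ± 0.09, adjusted p = 8.62e-17). Psmd14 stood at 113, 115, 118 and 111 CPM in the 4 OG CD44- libraries and at 27.7, 26.1, 21.9 and 26.3 CPM in the 4 R26 CD44+ libraries. Psmd14, which encodes the deubiquitinase of the regulatory lid, did not overlap either (log2 fold change 2.15 ± 0.06, adjusted p = 5.98e-19). The immunoproteasome genes Psmb8, Psmb9 and Psmb10, which replace the standard catalytic subunits in cells exposed to interferon, were not called (0.02 ± 0.09, -0.04 ± 0.11 and -0.25 ± 0.12), nor was the activator gene Psme2 (0.14 ± 0.22). Without R26 animal 8, R26 animal 7 or OG animal 7, Psmb10 was called lower, at -0.34, -0.35 and -0.34. In 27 of the 37, all OG CD44- values lay above the other 12 libraries, against 10.8% of all genes. Psmb5, for example, stood at 13.01 ± 1.46 CPM in R26 CD44- and 44.99 ± 2.58 CPM in OG CD44+. Sqstm1, which encodes the autophagy receptor p62, stood at 2058 ± 86.9 CPM in OG CD44- against 621 ± 55.02 CPM in R26 CD44+ (1.73 ± 0.06).

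Heat shock chaperone genes were mostly higher. In that list, of 18 tested, 12 were higher and 5 lower in OG CD44- (median log2 fold change 1.13). The small heat shock protein gene Hspb1 went the furthest: Hspb1 stood at 514, 469, 483 and 465 CPM in the 4 OG CD44- libraries and at 63.5, 79.7, 49.3 and 88.7 CPM in the 4 R26 CD44+ libraries (log2 fold change 2.77 ± 0.13, adjusted p = 1.72e-10). The constitutive chaperone genes Hspa8 (1.19 ± 0.08) and Hsp90ab1 (1.33 ± 0.07) and the mitochondrial pair Hspd1 (1.34 ± 0.11) and Hspe1 (1.65 ± 0.11) were also higher. The stress-inducible Hspa1a and Hspa1b were lower (-1.91 ± 0.25 and -1.03 ± 0.25); they are near-identical copies, so the division of reads between them is uncertain. All 12 members that were higher, of 18 tested, had their 4 OG CD44- values above the other 12 libraries, against 10.8% of all genes.

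**Figure D3:**
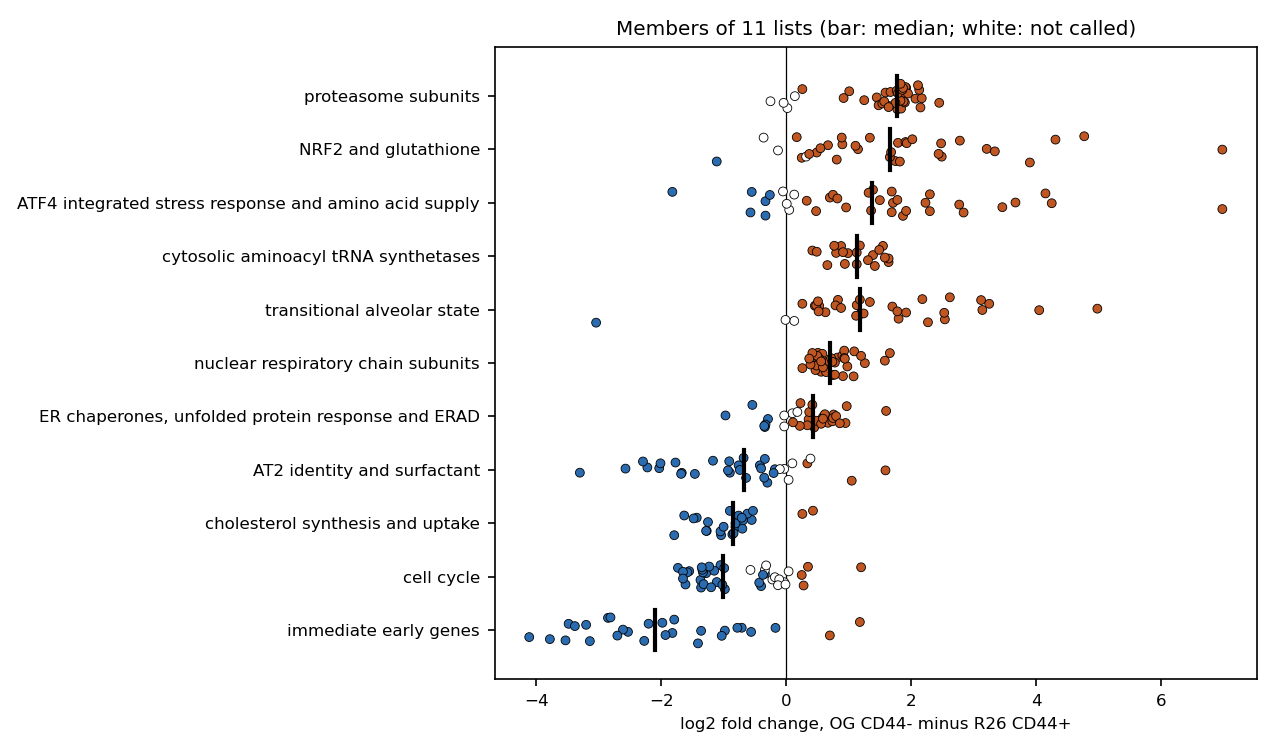
Log2 fold change, OG CD44- minus R26 CD44+, of each tested member of 11 gene lists; orange points were called higher, blue points lower and white points were not called, and the bar is the list median. Proteasome members cluster near their median of 1.78 except the immunoproteasome subunits near 0, and immediate early genes spread from -4.11 to 1.18.

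Nuclear genes of the respiratory chain were all higher by modest amounts: all 38 tested were higher in OG CD44- (median log2 fold change 0.71, range 0.26 to 1.66). Uqcrq, of complex III, and Ndufa4 showed the largest differences (1.66 ± 0.09 and 1.58 ± 0.09), and Sdha the smallest (0.26 ± 0.06). For cytosolic ribosomal proteins, of 40 tested, 34 were higher and 1 lower in OG CD44- (median log2 fold change 0.45), with Rpl10 as the member that was lower (-0.31 ± 0.09); these genes have many processed copies, so their counts are uncertain. For lysosome, V-ATPase and autophagy genes, of 34 tested, 23 were higher and 3 lower in OG CD44- (median log2 fold change 0.51). The lysosomal protease gene Ctsd stood at 1228 ± 7.97 CPM in OG CD44- against 219 ± 18.5 CPM in R26 CD44+ (log2 fold change 2.49 ± 0.06, adjusted p = 3.06e-20), while Atp6v1c2, a V-ATPase subunit gene, was lower (-1.87 ± 0.07). Glycolysis and hypoxia targets had no common direction: of 24 tested, 11 were higher and 8 lower in OG CD44- (median log2 fold change 0.08, and -0.07 with upper quartile scaling). With 1 library left out this median was 0.04 without R26 animal 8, 0.03 without R26 animal 7 or animal 1, 0.18 without R26 animal 2 and 0.15 without OG animal 7. Pgk1 had the largest increase named here. Pgk1 stood at 94.98, 80.4, 85.1 and 71.4 CPM in the 4 OG CD44- libraries and at 5.56, 8.53, 6.53 and 7.21 CPM in the 4 R26 CD44+ libraries. Pgk1 encodes phosphoglycerate kinase, and its groups did not overlap (log2 fold change 3.57 ± 0.11, adjusted p = 4.67e-18). Aldoa 1.58 ± 0.08 and Pkm 1.59 ± 0.06 were also higher, whereas Pfkp -1.40 ± 0.11 and Vegfa -0.46 ± 0.08 were lower and Ldha was not called (0.08 ± 0.06). Ndrg1, an iron- and hypoxia-responsive gene that stands on this list and the transitional list, was higher by 2.62 ± 0.06.

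Among AT2 identity and surfactant genes, of 33 tested, 3 were higher and 25 lower in OG CD44- (median log2 fold change -0.68). The decrease was uneven. Several defining genes differed little: Nkx2-1, the lineage transcription factor gene, -0.10 ± 0.05, Lpcat1, a surfactant phospholipid enzyme gene, -0.03 ± 0.08, and Napsa, a protease that processes surfactant protein B, 0.04 ± 0.13, were not called. Single libraries decided 2 of these: Nkx2-1 was called lower without R26 animal 8 (-0.13), animal 7 (-0.14) or animal 1 (-0.18), and Napsa was called higher without R26 animal 2 (0.20). R26 CD44- stood above OG CD44- for each: 596 ± 9.16 against 426 ± 5.11 CPM for Nkx2-1, 1445 ± 84.7 against 915 ± 17.2 for Lpcat1 and 1918 ± 184 against 1215 ± 45.8 for Napsa. Surfactant protein genes other than Sftpc were lower by smaller amounts: Sftpa1 -0.76 ± 0.07, Sftpb -0.42 ± 0.13 and Sftpd -0.18 ± 0.05. Abca3, the lamellar body lipid transporter gene, differed by -0.40 ± 0.08 and Lamp3 by -0.64 ± 0.06. Lyz1 stood at 195, 197, 203 and 161 CPM in the 4 OG CD44- libraries and at 1990.0, 1704, 2148 and 1620.0 CPM in the 4 R26 CD44+ libraries. Lyz1 and Lyz2 encode lysozymes and are close copies, so their separate changes (-3.30 ± 0.09 and -1.77 ± 0.09) are uncertain, though both were lower in every OG CD44- library. Fgfr2 stood at 291, 291, 295 and 299 CPM in the 4 OG CD44- libraries and at 931, 963, 955 and 898 CPM in the 4 R26 CD44+ libraries. Fgfr2, the FGF receptor gene that supports AT2 maintenance, did not overlap (log2 fold change -1.67 ± 0.04, adjusted p = 6.18e-20). Peptidase genes of the AT2 surface were lower too, Anpep (-2.01 ± 0.14) and Mme (-1.17 ± 0.06), as were the complement gene Hc (-1.68 ± 0.06) and Itih4 (-2.29 ± 0.10). Ctsh, a cathepsin that processes surfactant proteins, moved against the list: Ctsh stood at 1819, 1836, 1884 and 1739 CPM in the 4 OG CD44- libraries and at 638, 572, 635 and 581 CPM in the 4 R26 CD44+ libraries (log2 fold change 1.59 ± 0.06, adjusted p = 1.5e-16). In bulk libraries, fewer cells of a type and less RNA per cell cannot be told apart, which holds for every decrease given here.

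Markers of the transitional alveolar state were higher: of 33 tested, 30 were higher and 1 lower in OG CD44- (median log2 fold change 1.18), 20 of them at least 2-fold. Cldn4 stood at 336, 342, 343 and 352 CPM in the 4 OG CD44- libraries and at 20.7, 22.8, 14.97 and 23.5 CPM in the 4 R26 CD44+ libraries. Cldn4, a tight junction claudin gene, had no overlap (log2 fold change 4.05 ± 0.10, adjusted p = 2.23e-18), and the other groups stood at 2.64 ± 0.609 CPM in R26 CD44- and 801 ± 47.3 CPM in OG CD44+. Sprr1a stood at 231, 244, 177 and 193 CPM in the 4 OG CD44- libraries and at 6.78, 7.45, 4.99 and 7.21 CPM in the 4 R26 CD44+ libraries. Sprr1a encodes a small proline-rich protein of stratified epithelia; it did not overlap (log2 fold change 4.98 ± 0.23, adjusted p = 2.11e-10), and OG CD44- was its highest group, with 3.57 ± 0.569 CPM in R26 CD44- and 75.97 ± 21.2 CPM in OG CD44+. Clu stood at 4478, 4566, 4229 and 4898 CPM in the 4 OG CD44- libraries and at 453, 604, 436 and 570.0 CPM in the 4 R26 CD44+ libraries. Clu, which encodes the secreted chaperone clusterin, did not overlap (log2 fold change 3.14 ± 0.09, adjusted p = 2.22e-18). Keratin genes differed by 1.18 ± 0.06 for Krt8, 1.13 ± 0.05 for Krt18, 1.70 ± 0.05 for Krt19 and 1.34 ± 0.08 for Krt7, and the 14-3-3 gene Sfn by 2.27 ± 0.08. S100a6 2.53 ± 0.11, Anxa1 2.18 ± 0.12, Lgals3 3.12 ± 0.06 and Itgb6 1.92 ± 0.14 were also higher. Il1r2, a decoy receptor gene near the counting floor, was the member that was lower (0.0657 ± 0.0853 CPM in OG CD44- against 0.650 ± 0.478 CPM in R26 CD44+). Of the 33, 29 lay above R26 CD44+ without overlap (against 31.6% of all genes). Only 3 had OG CD44- above all other 12 libraries, which is near the share of 10.8% over all genes.

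AT1 markers were mostly higher as well: of 26 tested, 18 were higher and 6 lower in OG CD44- (median log2 fold change 0.68). Ager stood at 1505, 1486, 1409.7 and 1591 CPM in the 4 OG CD44- libraries and at 919, 819, 966 and 849 CPM in the 4 R26 CD44+ libraries. Ager, which encodes the receptor RAGE abundant on AT1 cells, did not overlap (log2 fold change 0.75 ± 0.06, adjusted p = 1.73e-10). Aqp5, a water channel gene, differed by 1.21 ± 0.08, Hopx by 0.86 ± 0.10, Pdpn by 1.03 ± 0.08, Agrn by 1.37 ± 0.06 and Clic5 by 0.84 ± 0.06. Members that were lower included Spock2 (-1.94 ± 0.08), Igfbp2, a marker of mature AT1 cells (-2.25 ± 0.16), Rtkn2 (-0.52 ± 0.10) and Cav1 (-0.39 ± 0.11). Igfbp2 stood at 5.20, 6.63, 7.35 and 4.38 CPM in OG CD44- and at 27.99, 27.6, 28.3 and 27.4 CPM in R26 CD44+. Its other ranges were 4.47 to 7.82 CPM in R26 CD44- and 4.61 to 6.89 CPM in OG CD44+, so R26 CD44+ alone stood high. The same held for Spock2, with a mean of 149.7 CPM in R26 CD44+. Its means were 35.3 CPM in R26 CD44-, 39.01 in OG CD44- and 40.4 in OG CD44+. Rtkn2 and Cav1 were higher in OG CD44- than in R26 CD44-. The ranges were 62.96 to 76.95 against 24.2 to 29.6 CPM for Rtkn2 and 110.3 to 115 against 35.7 to 41.8 CPM for Cav1. For epithelial junction genes, of 27 tested, 17 were higher and 4 lower in OG CD44- (median log2 fold change 0.29), with Pkp3, a plakophilin gene, higher by 1.59 ± 0.06 and Tjp3 lower (-0.99 ± 0.06).

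Genes of mesenchymal transition and of the cytoskeleton, fixed as a single list, were higher more often than lower. In this list, of 35 tested, 25 were higher and 7 lower in OG CD44- (median log2 fold change 0.47). Itga3 stood at 570.4, 571, 594 and 617 CPM in the 4 OG CD44- libraries and at 230.0, 227, 229 and 229.9 CPM in the 4 R26 CD44+ libraries. Itga3, an integrin subunit gene of epithelial cells, did not overlap (log2 fold change 1.36 ± 0.04, adjusted p = 3.54e-18). The integrin gene Itga2 2.25 ± 0.23, the fibronectin gene Fn1 1.34 ± 0.21, the filamin gene Flna 1.10 ± 0.05 and the focal adhesion genes Vcl 0.95 ± 0.05 and Zyx 0.99 ± 0.09 were higher. Lower members were Zeb1 -1.02 ± 0.16, Zeb2 -1.63 ± 0.18, Vim -0.90 ± 0.19, Acta2 -1.45 ± 0.18, Tagln -1.30 ± 0.14, Myl9 -1.16 ± 0.15 and Col17a1 -3.45 ± 0.59, several of which fibroblasts express too. All of them but Col17a1 (0.463 against 1.05 CPM) had a higher mean in OG CD44- than in R26 CD44-. These means were 7.51 against 4.48 CPM for Zeb1, 12.9 against 5.30 for Zeb2 and 38.1 against 7.67 for Vim. They were 19.3 against 11.4 CPM for Acta2, 13.1 against 7.76 for Tagln and 4.28 against 2.03 for Myl9. Without R26 animal 1, the difference in Col17a1, a hemidesmosomal collagen gene of basal cells, was -2.47. Summed fibroblast markers, given below, overlapped between the groups, and their part in these decreases was not tested.

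Cholesterol synthesis and uptake genes were lower as a group: of 24 tested, 2 were higher and 22 lower in OG CD44- (median log2 fold change -0.85), without overlap for 22 of them (against 30.7% of all genes). Insig1 stood at 67.7, 69.3, 69.4 and 65.1 CPM in the 4 OG CD44- libraries and at 249.8, 206, 283 and 199 CPM in the 4 R26 CD44+ libraries. Insig1, a sterol sensor partner and itself a target of SREBP2, did not overlap (log2 fold change -1.79 ± 0.09, adjusted p = 1.76e-11). Idi1 stood at 34.1, 31.5, 30.2 and 33.5 CPM in the 4 OG CD44- libraries and at 107, 99.6, 115 and 79.6 CPM in the 4 R26 CD44+ libraries. Idi1, isopentenyl diphosphate isomerase, did not overlap (log2 fold change -1.63 ± 0.09, adjusted p = 7.19e-13). Hmgcs1, an early enzyme gene of the pathway, differed by -0.90 ± 0.09, and Srebf2, which encodes SREBP2, by -0.71 ± 0.08. Pmvk and Ebp were the members that were higher (0.43 ± 0.12 and 0.26 ± 0.10). The call on Ebp was lost in the edgeR test without R26 animal 7 (adjusted p = 0.26), R26 animal 1 (adjusted p = 0.0897) or OG animal 3 (adjusted p = 0.0646). Levels in R26 CD44- and OG CD44+ were 333 ± 31.7 and 53.99 ± 2.34 CPM for Insig1. Fatty acid and phospholipid genes were mixed: of 35 tested, 7 were higher and 19 lower in OG CD44- (median log2 fold change -0.20). Gpam, the acyltransferase gene that opens glycerolipid synthesis, stood at 69.4 ± 3.68 CPM in OG CD44- against 309 ± 32.4 CPM in R26 CD44+ (log2 fold change -2.15 ± 0.06, adjusted p = 3.14e-19), and the desaturase genes Fads1 and Fads2 were lower (-1.48 ± 0.13 and -1.41 ± 0.15). Fasn, fatty acid synthase, was lower (-0.48 ± 0.10), and Scd1 and Pcyt1a, a rate-limiting gene of phosphatidylcholine synthesis, were not called (0.10 ± 0.15 and 0.00 ± 0.05).

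Immediate early genes, which respond within minutes to growth factors, stress or handling, were the list with the lowest median among pathways: of 28 tested, 2 were higher and 26 lower in OG CD44- (median log2 fold change -2.09), 21 of them at least 2-fold. Fos stood at 197, 194, 194 and 188 CPM in the 4 OG CD44- libraries and at 1689.5, 1827, 1435 and 1858 CPM in the 4 R26 CD44+ libraries. Fos, an AP-1 subunit gene, did not overlap (log2 fold change -3.14 ± 0.08, adjusted p = 6.63e-19), and the other groups stood at 1532 ± 153 CPM in R26 CD44- and 418 ± 27.3 CPM in OG CD44+. Egr1 stood at 139.7, 133, 121 and 117 CPM in the 4 OG CD44- libraries and at 1756, 1921, 1386 and 1939 CPM in the 4 R26 CD44+ libraries. Egr1, a zinc finger factor gene, did not overlap (log2 fold change -3.78 ± 0.13, adjusted p = 1.37e-12), with 1579 ± 121 CPM in R26 CD44- and 245 ± 42.1 CPM in OG CD44+. Fosb -4.11 ± 0.24, Nr4a1 -3.38 ± 0.18, Jun -2.27 ± 0.09, Junb -2.53 ± 0.11, Klf4 -2.85 ± 0.10 and Ier2 -2.61 ± 0.07 were also lower, and Gem, an immediate early GTPase gene outside the list, was at 19.9 ± 1.31 CPM in OG CD44- against 286 ± 40.1 CPM in R26 CD44+ (-3.85 ± 0.15). The exceptions were Fosl1, which encodes FRA1, and Myc, which were higher (1.18 ± 0.15 and 0.70 ± 0.08). In 17 of 28 members all OG CD44- values lay below the other 12 libraries, against 3.09% of all genes. Both R26 groups stood above both OG groups for Fos and Egr1.

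Inflammatory feedback and chemokine genes were lower more often than higher. In the NF-kappaB feedback list, of 19 tested, 6 were higher and 10 lower in OG CD44- (median log2 fold change -0.22). Nfkbiz stood at 31.6, 30.6, 32.5 and 30.5 CPM in the 4 OG CD44- libraries and at 255, 295, 231 and 288 CPM in the 4 R26 CD44+ libraries. Nfkbiz, which encodes the nuclear IκBζ, did not overlap (log2 fold change -3.10 ± 0.18, adjusted p = 3.09e-09). Nfkbia and Tnfaip3, feedback inhibitor genes, were lower (-2.05 ± 0.17 and -1.49 ± 0.23), while Cyld, a deubiquitinase gene, and Icam1 were higher by 0.80 ± 0.05 and 0.64 ± 0.05. Among chemokines, cytokines and alarmins, of 28 tested, 6 were higher and 16 lower in OG CD44- (median log2 fold change -0.93), including Cxcl1 -2.67 ± 0.42, Cxcl2 -2.75 ± 0.35, Il6 -2.42 ± 0.28, Csf2 -2.03 ± 0.20 and Csf1 -1.30 ± 0.12. Spp1 moved the other way: Spp1 stood at 109.7, 115, 106 and 102 CPM in the 4 OG CD44- libraries and at 4.33, 2.24, 6.18 and 3.28 CPM in the 4 R26 CD44+ libraries. Spp1 encodes osteopontin, a ligand of CD44 and integrins, and did not overlap (log2 fold change 4.80 ± 0.14, adjusted p = 4.54e-16), with 0.816 ± 0.297 CPM in R26 CD44- and 209 ± 8.38 CPM in OG CD44+. Interferon response genes were lower as well: of 32 tested, 4 were higher and 20 lower in OG CD44- (median log2 fold change -0.60), with Irf1 at 55.6 ± 3.28 CPM in OG CD44- against 169 ± 14.4 CPM in R26 CD44+ (-1.60 ± 0.14), Gbp7 -1.35 ± 0.24, Stat2 -1.26 ± 0.09 and, as an exception, Rsad2 2.28 ± 0.19. For MHC class II genes, of 10 tested, 2 were higher and 8 lower in OG CD44- (median log2 fold change -0.63), with Cd74 -0.40 ± 0.07 and H2-Ab1 -0.65 ± 0.07; leaving out any 1 of R26 animals 8, 7 and 1 or OG animals 7, 5 and 3 left a single member higher. For MHC class I genes, of 15 tested, 6 were higher and 4 lower in OG CD44- (median log2 fold change 0.11), with no stable lean: without R26 animal 8, 4 were higher and 5 lower with a median of 0.00, and without R26 animal 2 the median was 0.02.

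Signalling genes divided within each family. For TGF-beta pathway and profibrotic ligand genes, of 31 tested, 9 were higher and 14 lower in OG CD44- (median log2 fold change -0.17, and -0.27 without R26 animal 8 or -0.08 without R26 animal 1). Itgb6 stood at 337, 333, 342 and 426 CPM in the 4 OG CD44- libraries and at 84.4, 114, 67.5 and 112 CPM in the 4 R26 CD44+ libraries. Itgb6 encodes the epithelial partner of the integrin that activates latent TGF-beta, and it did not overlap (log2 fold change 1.92 ± 0.14, adjusted p = 2.03e-08); its partner Itgav was higher by 1.47 ± 0.07. Pdgfb 1.21 ± 0.08, Tgfb2 0.71 ± 0.11 and Gdf15 1.78 ± 0.08 were higher, while Ltbp4 -2.27 ± 0.24, Tgfbr3 -2.08 ± 0.13 and Bmp2 -1.27 ± 0.09 were lower. For EGFR ligands, receptors and feedback genes, of 16 tested, 9 were higher and 5 lower in OG CD44- (median log2 fold change 0.20): the ligand genes Ereg 3.96 ± 0.18, Nrg1 2.31 ± 0.19 and Areg 0.53 ± 0.10 were higher, and Egfr -1.62 ± 0.12 and the feedback inhibitor genes Errfi1 -1.39 ± 0.07 and Spry1 -1.52 ± 0.07 lower. For Wnt and Notch genes, of 31 tested, 5 were higher and 19 lower in OG CD44- (median log2 fold change -0.56): the Wnt target Axin2 -1.75 ± 0.12 and the Notch targets Hes1 -0.80 ± 0.07 and Heyl -1.70 ± 0.22 were lower, and the epithelial ligand gene Wnt7b was higher (1.30 ± 0.10). For YAP and TAZ targets, of 27 tested, 10 were higher and 14 lower in OG CD44- (median log2 fold change -0.24). Ccn1 and Ccn2 were lower (-0.55 ± 0.13 and -0.44 ± 0.13), Ajuba and F3 higher by 1.53 ± 0.06 and 1.54 ± 0.10, and Yap1 itself was not called (0.02 ± 0.04).

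Against R26 CD44+, targets of p53 leaned higher and cell cycle genes lower. For p53 targets and senescence, of 30 tested, 18 were higher and 9 lower in OG CD44- (median log2 fold change 0.65). Ccng1 stood at 401, 415, 411 and 419 CPM in the 4 OG CD44- libraries and at 92.1, 96.7, 103 and 101 CPM in the 4 R26 CD44+ libraries. Ccng1, a direct p53 target gene, did not overlap (log2 fold change 2.07 ± 0.05, adjusted p = 1.72e-20). Cdkn1a, which encodes p21, was higher by 1.24 ± 0.06, the death receptor gene Tnfrsf10b by 2.90 ± 0.13, Phlda3 by 2.54 ± 0.08 and the CDK inhibitor gene Cdkn2b by 1.90 ± 0.11, while Btg2 -1.79 ± 0.08 and Igfbp3 -3.17 ± 0.22 were lower. For cell cycle genes, of 40 tested, 4 were higher and 26 lower in OG CD44- (median log2 fold change -1.0). Top2a stood at 19.4, 20.7, 19.6 and 25.7 CPM in the 4 OG CD44- libraries and at 28.6, 96.4, 46.1 and 79.6 CPM in the 4 R26 CD44+ libraries. Top2a, a topoisomerase gene of dividing cells, was lower (log2 fold change -1.55 ± 0.38, adjusted p = 0.00283), as were Mki67 -0.98 ± 0.33 and Cenpf -1.73 ± 0.39. In the other groups Top2a stood at 11.1 ± 6.63 CPM in R26 CD44- and 35.1 ± 2.30 CPM in OG CD44+, so OG CD44- lay above R26 CD44-. The R26 CD44+ libraries spread widely, and in the edgeR test the call on Mki67 was lost without R26 animal 7 (adjusted p = 0.0581). Of the replication helicase genes, Mcm3, Mcm5 and Mcm6 were not called (-0.18 ± 0.17, 0.04 ± 0.27 and -0.03 ± 0.07). Without R26 animal 8, 2 members of this list were higher. Ccnd1, which encodes cyclin D1, was higher by 1.20 ± 0.06. The summed cell cycle list was 1151 to 1223 CPM in OG CD44- and 787 to 1190.5 CPM in R26 CD44+. It was 625 to 768 CPM in R26 CD44- and 1443 to 1522 CPM in OG CD44+. Ccnd1 alone held 693 to 718 CPM of the OG CD44- sum.

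Genes named for size outside these lists included several best known from neurons and endocrine cells. Ptprn stood at 611, 619, 596 and 563 CPM in the 4 OG CD44- libraries and at 11.2, 8.17, 5.82 and 8.61 CPM in the 4 R26 CD44+ libraries. Ptprn encodes a receptor-like protein of dense core vesicles, and its groups did not overlap (log2 fold change 6.12 ± 0.11, adjusted p = 6.02e-20), with 4.76 ± 0.723 CPM in R26 CD44- and 321 ± 21.7 CPM in OG CD44+. Kif1a stood at 383, 408, 383 and 382 CPM in the 4 OG CD44- libraries and at 13.1, 8.97, 6.41 and 8.71 CPM in the 4 R26 CD44+ libraries. Kif1a encodes a motor of axonal transport and did not overlap either (log2 fold change 5.37 ± 0.10, adjusted p = 6.02e-20). Tenm4, which encodes a teneurin adhesion protein, stood at 117 ± 4.42 CPM in OG CD44- against 2.83 ± 0.805 CPM in R26 CD44+ (5.34 ± 0.09), and Fbxo2, which encodes a ubiquitin ligase subunit that binds glycoproteins, at 100.3 ± 2.93 CPM in OG CD44- against 4.52 ± 0.660 CPM in R26 CD44+ (4.47 ± 0.10). All 4 of these genes had OG CD44- above every other library. Genes outside the lists were named by rules that required no overlap between the groups, or values outside the other 12 libraries. The lack of overlap is therefore no separate result for them. Neuroendocrine and tuft cell markers differed from these genes: of 7 tested, 4 were lower in OG CD44-, and their summed level was 73.7 to 80.7 CPM in OG CD44- and 72.2 to 100.1 CPM in R26 CD44+. Large decreases outside the lists were Mgll, a monoacylglycerol lipase gene, -3.47 ± 0.28, and Ttn, the titin gene, -3.28 ± 0.24.

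Most marker lists for cell types outside the AT2 lineage had a negative median log2 fold change. Summed levels were less uniform: those of fibroblast, ciliated and neuroendocrine markers overlapped, and those of mesothelial and basal markers were higher in OG CD44-. Their part in the results above was not tested. Club, goblet and secretory markers were lower: of 22 tested, 20 were lower in OG CD44- (median log2 fold change -1.99), with a summed level of 1616 to 1859.9 CPM in OG CD44- and 4804 to 7107 CPM in R26 CD44+, beside 4031 to 5281 in R26 CD44- and 3274 to 4171 in OG CD44+. Scgb1a1 stood at 528, 496, 432 and 426 CPM in the 4 OG CD44- libraries and at 2314, 1229, 2254 and 1786 CPM in the 4 R26 CD44+ libraries. Scgb1a1, the club cell secretoglobin gene, did not overlap (log2 fold change -2.01 ± 0.25, adjusted p = 1.03e-05). It stood at 584 ± 195 CPM in R26 CD44- and 1558 ± 235 CPM in OG CD44+. Between OG CD44- and R26 CD44-, Scgb1a1 ranges overlapped (426 to 528 and 356 to 823 CPM), whereas the summed list did not overlap. The lower sum in OG CD44- than in R26 CD44- therefore came mostly from other members. Pigr, the immunoglobulin transporter gene, stood at 12.9, 13.3, 13.5 and 13.96 CPM in OG CD44- and 140.2, 424, 125 and 372 CPM in R26 CD44+ (log2 fold change -4.31 ± 0.59, adjusted p = 2.33e-05). Plasma cell transcripts went with it. Igha stood at 34.6, 35.8, 32.5 and 66.7 CPM in the 4 OG CD44- libraries and at 860.0, 857, 1857 and 1146 CPM in the 4 R26 CD44+ libraries. Igha, the IgA heavy chain gene, was lower in every OG CD44- library (log2 fold change -4.79 ± 0.49, adjusted p = 1.47e-06), as were Igkc -4.51 ± 0.48 and Jchain -4.31 ± 0.42. Reads of immunoglobulin genes can match several family members, which makes the level of each one uncertain. For lymphocyte and plasma cell markers, of 13 tested, 1 was higher and 10 lower in OG CD44-, with 10 more below the filter on low counts. Of the whole list, 4 were at 0 in all OG CD44- libraries. The summed level was 805 to 908 CPM in OG CD44- and 2152 to 4503 CPM in R26 CD44+, beside 679 to 799 in R26 CD44- and 2412 to 5038 in OG CD44+.

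Endothelial markers were lower: of 24 tested, 1 was higher and 21 lower in OG CD44- (median log2 fold change -1.48, summed level 231 to 243 CPM in OG CD44- and 296 to 360.4 CPM in R26 CD44+, beside 157 to 186 in R26 CD44- and 136 to 169.8 in OG CD44+), with Cdh5 at 6.96 ± 0.667 CPM in OG CD44- against 22.4 ± 2.75 CPM in R26 CD44+ and Kdr at 4.88 ± 0.699 CPM in OG CD44- against 20.95 ± 7.14 CPM in R26 CD44+; Esam was the exception (0.71 ± 0.05). Fibroblast and mural markers were lower for 17 of 29 and higher for 2 (median log2 fold change -1.0), with a summed level of 2706 to 2742 CPM in OG CD44- and 2284 to 3913 CPM in R26 CD44+, beside 920.4 to 1001 in R26 CD44- and 4684 to 7226 in OG CD44+. The abundant collagen genes were not called: Col1a1 0.36 ± 0.23, Col1a2 -0.32 ± 0.26 and Col3a1 -0.58 ± 0.27. Without R26 animal 1, Col1a1 was called higher (0.64) and 5 members of the list were higher. Without R26 animal 2, Col3a1 was called lower (-0.78). Members that were lower included Inmt -2.36 ± 0.30, Dcn -1.79 ± 0.10, Pdgfra -1.37 ± 0.30 and Fbln1 -2.35 ± 0.34, and Sparc, a matrix glycoprotein gene, was among those higher (0.89 ± 0.06). Mesothelial markers had 2 higher and 6 lower of 8 (summed level 473 to 485 CPM in OG CD44- and 199 to 228 CPM in R26 CD44+, beside 75.4 to 81.2 in R26 CD44- and 722 to 792 in OG CD44+), a sum dominated by Krt19. Leaving out any 1 of R26 animals 8 and 2 or OG animals 7, 6 and 5 left 1 mesothelial marker higher. Ciliated markers were mostly not called (3 higher and 5 lower of 23, summed level 1034 to 1073 CPM in OG CD44- and 797 to 1216 CPM in R26 CD44+). Without R26 animal 7, 1 was higher and 11 were lower, and without R26 animal 2 or OG animal 5, 1 was higher.

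Macrophage markers divided. Of 21 tested, 8 were higher and 10 lower; without Lyz2, which AT2 cells express, the summed level of the other 25 was 164 to 171 CPM in OG CD44- and 143 to 192 CPM in R26 CD44+. Among the members that were higher, Chil3 stood at 25.03, 24.3, 23.4 and 25.96 CPM in OG CD44- and 0.377, 1.35, 2.26 and 0.655 CPM in R26 CD44+ (log2 fold change 4.47 ± 0.34, adjusted p = 5.16e-09), and Mrc1 was higher by 1.89 ± 0.50, or by 2.52 without R26 animal 1. Marco was at 1.81 ± 0.443 CPM in OG CD44- and listed at 0 in every R26 CD44+ library. Members that were lower included Csf1r -1.65 ± 0.14 and Itgam -3.21 ± 0.31. Basal cell markers held 7 tested members, 4 higher and 3 lower. Krt17 was at 6.05, 5.87, 5.43 and 5.71 CPM in OG CD44- and 0, 0, 0 and 0.281 CPM in R26 CD44+, and 1167 to 1309 CPM against 731 to 921 CPM were the ranges of the summed list. Krt5 and Trp63, which define basal cells, did not pass the filter on low counts. Krt5 stood at 0, 0, 0 and 0.288 CPM in OG CD44- and 0, 0, 0 and 34.4 CPM in R26 CD44+, and Trp63 at 0.390, 0.224, 0.334 and 0.173 CPM and 0.188, 0.0897, 0.238 and 3.84 CPM. Neutrophil, mast cell and eosinophil markers were few in both groups, with summed levels of 1.37 to 1.66 CPM in OG CD44- and 2.24 to 4.31 CPM in R26 CD44+, and 14 of 17 were under the filter. Erythroid and platelet markers summed to 7.27 to 8.19 CPM in OG CD44- and 13.9 to 24.2 CPM in R26 CD44+.

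**Figure D4:**
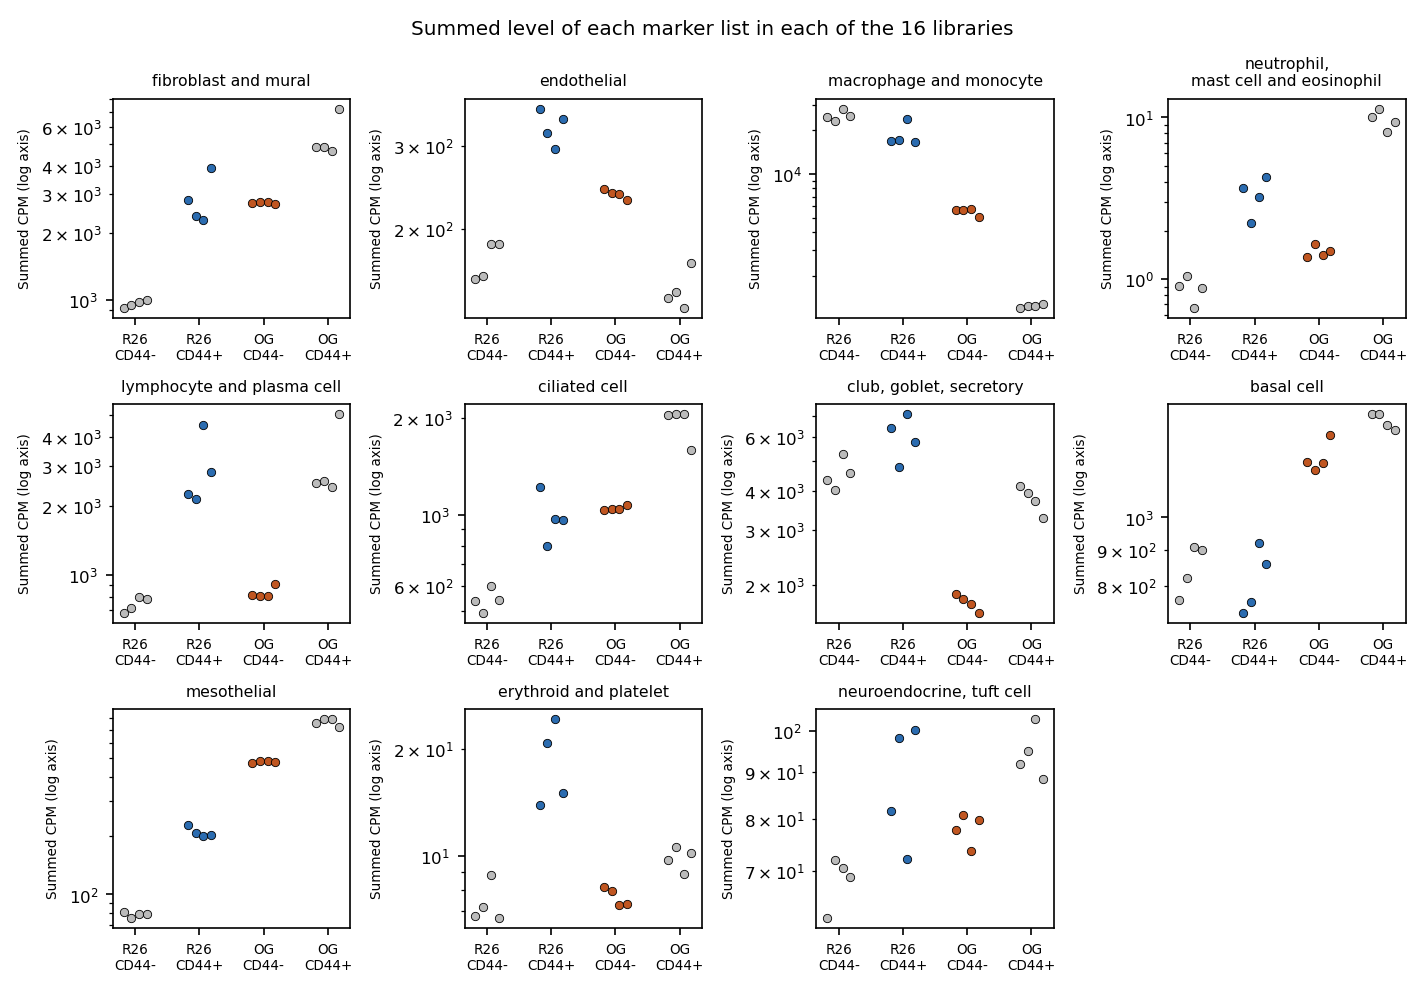
Summed CPM, on log axes, of 11 marker lists for other cell types in each of the 16 libraries, by group, with OG CD44- in orange and R26 CD44+ in blue. Club, lymphocyte, endothelial and erythroid sums lie lower in OG CD44- than in R26 CD44+, the macrophage sum is mostly Lyz2, and mesothelial and basal sums lie higher.

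Some abundant list members hardly differed. The intervals of the log2 fold change were narrowest around 0 for Yap1 (-0.07 to 0.11), the autophagy kinase gene Ulk1 (-0.09 to 0.11), Pcyt1a (-0.10 to 0.10) and the Hippo pathway scaffold gene Wwc1 (-0.12 to 0.09), as 95% intervals. With upper quartile scaling, which moved all genes down, Yap1, Ulk1 and Pcyt1a were called lower, at -0.13, -0.13 and -0.14. Yap1, for example, stood at 129, 126, 126 and 131 CPM in OG CD44- and 131, 125, 127 and 122 CPM in R26 CD44+.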

How the data were processed

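RNA was measured by stranded total RNA sequencing after ribosomal RNA depletion, per the labels' protocols, in 16 libraries of sorted mouse lung AT2 cells. The deposited table holds raw counts per gene identifier; the submitters' processing notes name Bowtie2 and the build mm10, and the counting tool and its strand setting are not given in the sources used here, so reads of overlapping or antisense genes may be mixed. Of 27179 identifiers, 25275 (93%) were given symbols from RefSeq's gene table for GRCm38.p6. An identifier without a symbol held 5.52 to 7.44% of the counts in the compared libraries; it stayed in the totals and was left out in an alternative.

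Groups were taken from column names, as described above. Counts were fitted with edgeR 4.0.16 in R 4.3.3 (TMM scaling, filterByExpr, robust quasi-likelihood, 1 mean for each of the 4 groups over all 16 libraries), and OG CD44- was tested against R26 CD44+ with Benjamini-Hochberg adjustment over 15516 genes. Every adjusted p is from that test. SEs were computed from the log2 fold change and the F statistic. Mean ± SD values are over 4 libraries, which are different mice.

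Named genes were the gate antigens and Sftpc, the 12 largest changes in each direction without overlap and with mean log2 CPM of at least 4, up to 3 members per list and direction by adjusted p, the 6 largest and 6 smallest changes outside the other 12 libraries, and 4 list members nearest 0. Other list members named were chosen after their values were seen. The comparison, the gene lists and the markers were chosen with earlier results of these data known.

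Promoter windows and their sequences came from RefSeq (GRCm38.p6). Alternatives covered scaling, DESeq2 1.42.0, limma 3.58.1, filters, a minimum fold, an animal block and leaving out each library. Scripts were tested on simulated data. Some list members are not reported here. Library totals limit precision by counting error only: 3 counts were at most 0.333 CPM.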

Additional observations from a re-analysis of the deposited data

Results flagged for a closer look

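Of 526 groups of 4 libraries examined (each named gene and summed marker list in both groups), 55 (10.5%) held a library whose gap to the nearest other exceeded Dixon's 95% critical value as a share of the group's range, where chance flags about 1 in 20. OG CD44- animal 6 was set apart as the lowest of its group for Ptprc (0.717 CPM). OG CD44- animal 3 was set apart as the lowest of its group for Chac1 (26.6 CPM), Srxn1 (653), Slc1a4 (91.8), Sars (166), Herpud1 (178), Dnajb9 (86.2), Atp6v1c2 (50.1), Mme (239), Acta2 (16.7), Errfi1 (461) and Ccn2 (47.8). OG CD44- animal 7 was set apart as the lowest of its group for Krt19 (412 CPM) and Tgfbr3 (10.01). OG CD44- animal 5 was set apart as the highest of its group for Trib3 (117 CPM) and Phgdh (6.35). OG CD44- animal 3 was set apart as the highest of its group for Sdf2l1 (28.3 CPM), Itgb6 (426), Rtkn2 (76.95), Flna (1408), Icam1 (1252), Ajuba (76.8), Ccnd1 (718), Igha (66.7), Jchain (15.2), Krt5 (0.288) and summed lymphocyte and plasma cell markers (908). OG CD44- animal 7 was set apart as the highest of its group for Ldha (140.3 CPM). OG CD44- animal 5 was set apart as the lowest of its group for Sfn (294 CPM) and Cyld (99.00). OG CD44- animal 6 was set apart as the highest of its group for Cdkn1a (291 CPM) and Kif1a (408). R26 CD44+ animal 2 was set apart as the highest of its group for Sftpc (72715 CPM), Ptprc (15.4), Gss (26.7), Tkt (307), Gsta2 (1.07), Pkm (159), Napsa (1613), Sftpb (16375), Lyz2 (23629), Aqp5 (417), Fads1 (322) and summed macrophage and monocyte markers (23821). R26 CD44+ animal 2 was set apart as the lowest of its group for Krt7 (121 CPM) and Pdgfb (25.9). R26 CD44+ animal 8 was set apart as the highest of its group for Spock2 (184 CPM). R26 CD44+ animal 1 was set apart as the highest of its group for Fn1 (271 CPM), Col17a1 (13.1), Col1a1 (362), Krt17 (0.281), Krt5 (34.4) and Trp63 (3.84). R26 CD44+ animal 8 was set apart as the lowest of its group for Csf2 (9.42 CPM) and H2-Ab1 (474). OG CD44- animal 3 and R26 CD44+ animal 2 accounted for most of these. The values in R26 CD44+ animal 1 include Krt5, Trp63, Krt17 and Col17a1, which basal cells express. No cause was tested for any of them.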

How the results depend on the processing

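A minimum difference of 1.5-fold in the test (glmTreat) reduced the called genes from 5466 higher and 5675 lower to 1832 higher and 3157 lower; the other settings kept both counts within 1.5 times. DESeq2's Wald test gave 5284 higher and 5811 lower, limma voom with quality weights 5304 higher and 5453 lower, the 8 compared libraries alone 5032 higher and 5146 lower, no filter on low counts 5926 higher and 6269 lower, and limma voom with 1 weight per group, an alternative chosen after seeing the data, 5241 higher and 5368 lower. Leaving out 1 library at a time gave 5028 to 5367 higher and 5472 to 5994 lower. With the replicate block, that is the animal as a random block in limma voom, 5554 higher and 5558 lower were called (correlation within animals 0.182); the compared groups share no animal, so the block pairs nothing within this comparison, and the numbers in the titles could not be matched to those in the column names. Of 6742 values for 250 named genes under 27 alternatives, 6659 kept their side of the threshold and, where called, their direction, 57 lost and 22 gained a call. Genes not called counted as kept even where the sign changed, as for Mcm5 (-0.21 to 0.21). Upper quartile scaling turned Vldlr (-0.14), Pcyt1a (-0.14), Yap1 (-0.13) and Ulk1 (-0.13), which had been near 0, into calls below 0, and the glycolysis and hypoxia median to -0.07. The median of macrophage and monocyte markers was 0.14 with voom quality weights in place of -0.42. The median of basal cell markers, 0.50 over 7 genes, became -1.69 over 13 genes without the filter and ranged from -0.37 to 0.45 with 1 library left out; values below 0 came without R26 animal 8 (-0.28), 7 (-0.37) or 2 (-0.23) and without OG animal 7 (-0.29), 6 (-0.12), 5 (-0.25) or 3 (-0.23), where an eighth member passed the filter. The cause of the other changes was not tested. In simulated counts for this comparison over 15516 genes, 200 genes were changed, and 63.1% of 1.5-fold, 81.8% of 2-fold and 95.5% of 4-fold changes were recovered. In the data 71.8% of genes were called. The adjustment is stricter where few genes change, so these shares do not measure recovery in this comparison. Recovery was not divided by count level.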
